A study of Homo sapiens with 6 samples.

Results

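The 8 genes described here encode the receptors FAS, TNFRSF10A and TNFRSF10B and the chain that couples them to cell death: FADD, CASP8, CASP10, CFLAR and BID. They were taken by symbol from a table of 58735 genes, and each symbol stood on 1 row. Raji is a B-cell line from a Burkitt lymphoma, here with a GFP and firefly luciferase reporter, and polyadenylated RNA was sequenced from 3 libraries of cells given the solvent DMSO overnight and 3 of cells given 1 nM bryostatin-1, an activator of protein kinase C. All libraries come from 1 cell line. The labels do not tie them to separate cultures, and the spread behind each p-value may therefore be technical.

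FAS and the 2 TRAIL receptors, TNFRSF10A (DR4) and TNFRSF10B (DR5), carry a cytoplasmic death domain. When a ligand clusters them, the adaptor FADD binds that domain and recruits the initiator caspases CASP8 and CASP10, while CFLAR (c-FLIP), a relative without protease activity of its own, competes for the same platform. Active CASP8 cleaves effector caspases directly, or cuts BID, whose fragment opens the mitochondrial route. Germinal centre B cells, the normal counterparts of Burkitt lymphoma, are known for their sensitivity to FAS.

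The property that sets CFLAR apart from the caspases it sits beside can be read in the reference coding sequence. The 39 bases around the active site are shown, with capitals marking the codon of the catalytic cysteine in CASP8 and CASP10 and the codon at the same place in CFLAR, which does not encode cysteine. The place in CFLAR was found without a gap from 3 identical residues that end 1 residue before the site. For BID the capitals mark the aspartate codon after which CASP8 cuts. The sequences are from GENCODE release 29 transcripts on hg38, at chr2:201285073-201285111, chr2:201209330-201209368 and chr2:201160698-201160736 on the plus strand and chr22:17743828-17743866 on the minus strand, each within 1 coding exon.
CASP8: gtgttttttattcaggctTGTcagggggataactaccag
CASP10: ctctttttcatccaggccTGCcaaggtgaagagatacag
CFLAR: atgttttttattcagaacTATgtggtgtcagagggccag
BID: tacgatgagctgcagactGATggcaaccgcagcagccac
Over their whole aligned proteins CASP8 and CASP10 shared 42.4% of residues, CASP8 and CFLAR 30.0%, and CASP10 and CFLAR 31.1%.

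FPKM divides the fragments of a gene by its length and by a scaling value for the library. That value was not the number of reads on genes. FPKM times length in kb summed to 975777.8 in DMSO replicate 2 and 1022996.2 in bryostatin replicate 1, and how it was scaled is not given in the sources used here. Values are given as mean ± SD with n = 3 libraries per group. Library depth ran from 19405370 to 24468270 reads on genes, and up to 3 reads can go unseen behind a count of 0, which is 0.123 to 0.155 CPM, reads scaled to library size alone. The libraries did not separate fully by treatment. Over the 11071 genes tested, DMSO replicate 3 correlated best with bryostatin replicate 2 (r = 0.981), and with DMSO replicates 1 and 2 at 0.976 and 0.971. DMSO replicates 1 and 2 correlated best with each other (r = 0.983), but DMSO replicate 2 was nearly as close to bryostatin replicate 3 (r = 0.981). The summed level of 10 proliferation genes was 316.8 and 388.8 FPKM in DMSO replicates 1 and 2 and 613.9 in DMSO replicate 3, against 587.7 to 733.9 in the bryostatin libraries. All 8 B-cell markers were present, summing to 2482 to 3610 FPKM per library. The 5 T-cell and 5 monocyte markers summed to at most 0.357 and 0.235 FPKM, the 4 epithelial markers to at most 0.0498 and the 4 fibroblast markers to at most 0.727. The 4 NK-cell markers summed to 1.92 to 4.60 FPKM in DMSO and 1.82 to 3.12 with bryostatin, with at least 2 of them at 0 in each library. Mitochondrially encoded genes took 2.68% to 3.35% of reads.

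In these cells both arms of receptor and chain were transcribed with 1 gap: FAS, the TRAIL receptors, FADD, BID, CFLAR and CASP8 were present in each library, and CASP10 was almost absent. The question was whether overnight bryostatin-1 changed this set. FAS was lower in all 3 bryostatin libraries than in any DMSO library, 10.8 against 14.2 FPKM, and FADD was higher on average, 10.9 against 8.10 FPKM, with overlapping libraries. None of the 8 passed the test over all genes, and the libraries of the other members overlapped between the treatments.

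**Figure D1:**
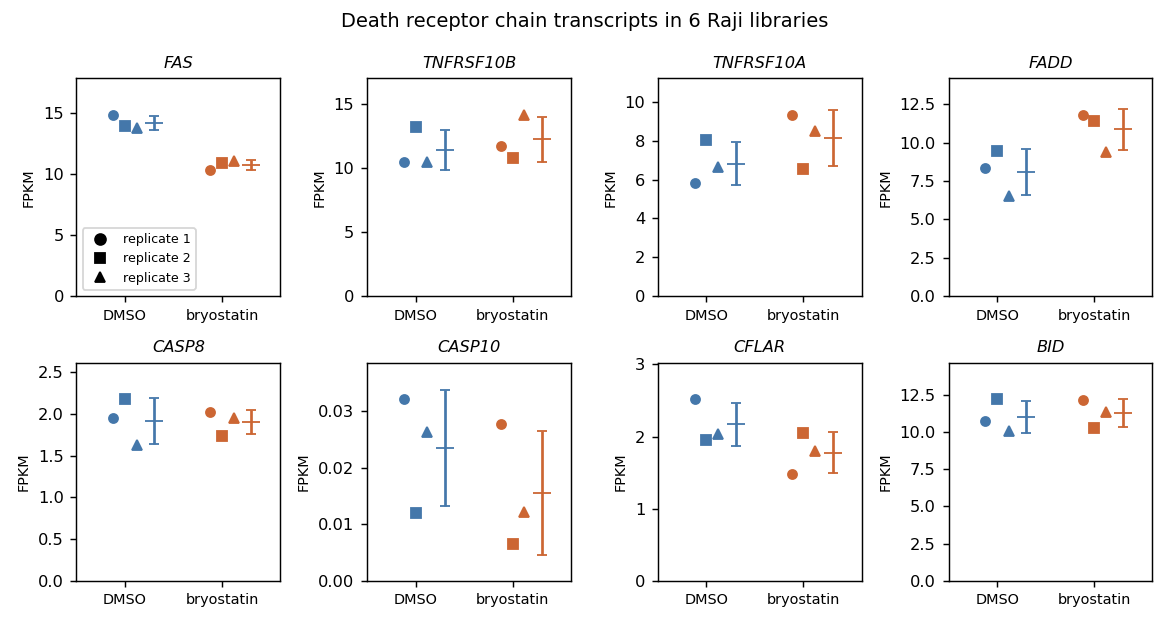
FPKM of the 8 genes in each library (linear axes from 0, a separate scale per gene), with DMSO in blue and bryostatin in orange, the marker giving the replicate number and the bars the mean ± SD of 3 libraries. FAS is the gene whose groups do not overlap, 13.8 to 14.9 FPKM in DMSO against 10.3 to 11.0 with bryostatin.

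FAS (ENSG00000026103, chromosome 10, 88990582 to 89015785, hg38, plus strand) was the most abundant of the 8 in DMSO. Its level was 14.9, 13.98 and 13.8 FPKM in DMSO replicates 1 to 3 and 10.3, 11.0 and 11.0 FPKM in bryostatin replicates 1 to 3. The groups did not overlap, and DMSO replicate 3 was the lowest of the DMSO libraries. The means were 14.2 ± 0.576 and 10.8 ± 0.407 FPKM, a log2 change of -0.37 (SE 0.076, 95% interval -0.55 to -0.19, unadjusted p = 0.00168, adjusted p = 0.216 in limma). In bulk RNA, fewer cells with the transcript and less transcript per cell cannot be told apart. On the scale used, log2(FPKM + 1), the interval runs from 0.683 to 0.875 of the DMSO value of FPKM + 1. FAS was read from 831 to 1559 reads per library, for which counting error alone is 2.97%, against a spread between libraries of 4.06% in DMSO and 3.78% with bryostatin. The exact two-sided permutation test of 3 against 3 gave 0.1, the smallest p it allows. Of the 11071 genes, 73 had an unadjusted p as small as that of FAS or smaller. Without DMSO replicate 3 the log2 change was -0.39 and the adjusted p 0.0584 in limma, in a fit where 267 genes passed.

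The FAS gene shares 380 bases of its exons, 8.93%, with ACTA2 on the opposite strand, and the strand setting of the counting is not given in the sources used here. ACTA2, which encodes smooth muscle actin, had mean levels of 0.576 FPKM (DMSO) and 0.532 FPKM (bryostatin), with 212 reads over all libraries against 6814 for FAS.

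The TRAIL receptors did not follow FAS. TNFRSF10B (ENSG00000120889, chromosome 8, 23020133 to 23069179, minus strand) was at 10.5, 13.2 and 10.4 FPKM in DMSO against 11.7, 10.8 and 14.1 FPKM with bryostatin. The highest library of each group stood well above the rest, and the groups overlapped. The means were 11.4 ± 1.57 and 12.2 ± 1.73 FPKM (log2 change 0.10, 95% interval -0.21 to 0.40, adjusted p = 0.720 in limma). The sign turned without bryostatin replicate 3, to a log2 change of -0.0071. TNFRSF10A (ENSG00000104689, chromosome 8, 23190452 to 23225126, minus strand) was at 5.80, 8.03 and 6.65 FPKM in DMSO against 9.34, 6.55 and 8.51 FPKM with bryostatin. Bryostatin replicate 2 lay among the DMSO libraries, while bryostatin replicates 1 and 3 exceeded them. The means were 6.83 ± 1.12 and 8.14 ± 1.43 FPKM (log2 change 0.22, 95% interval -0.13 to 0.58, adjusted p = 0.455 in limma). The log2 change was 0.12 without DMSO replicate 1, 0.13 without bryostatin replicate 1 and 0.35 without bryostatin replicate 2 (unadjusted p = 0.0430 in limma). The processed and antisense transcripts AC100861.1 and TNFRSF10A-AS1, on the opposite strand, share 9.01% and 7.59% of TNFRSF10A exon bases and were at 3.45 and 2.68 FPKM in DMSO, so part of the TNFRSF10A reads cannot be assigned with certainty.

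The 2 decoy receptors for TRAIL, which bind the ligand without passing on a full death signal, lie between these 2 genes in a stretch of 121272 bases. TNFRSF10C had 1 read over the 6 libraries and TNFRSF10D had 0, against 7729 for TNFRSF10B and 2786 for TNFRSF10A. A count of 0 in every library allows up to 3 reads in each.

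**Figure D2:**
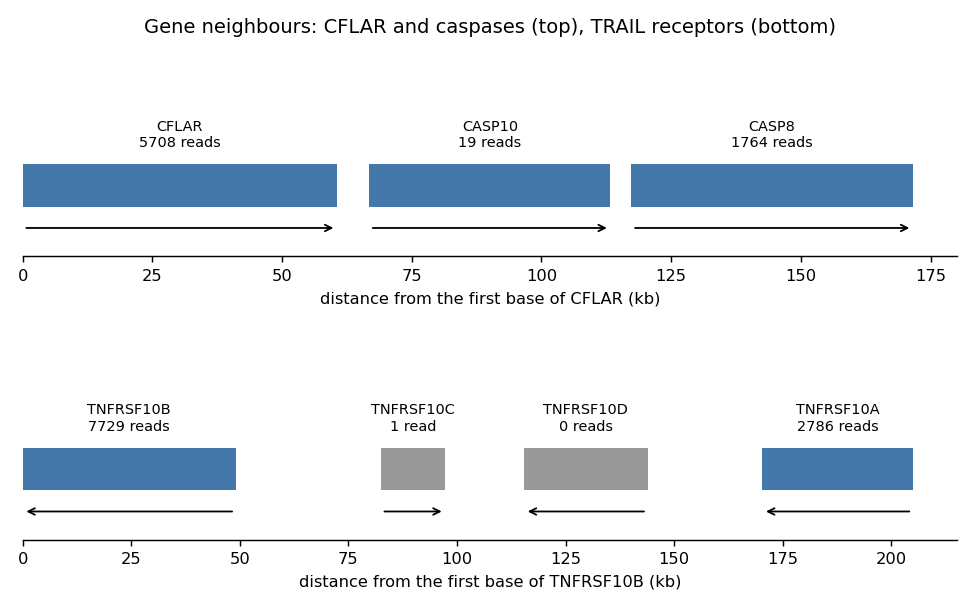
Gene extents at 2 loci as distance in kb from the first base of CFLAR (top) and TNFRSF10B (bottom), with arrows for the strand and the reads over all 6 libraries above each gene. Blue genes are among the 8 described and grey ones are the decoy receptors. CASP10, with 19 reads, lies between CFLAR with 5708 and CASP8 with 1764, and the decoys have 1 and 0 reads.

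The adaptor FADD (ENSG00000168040, chromosome 11, 70203163 to 70207390, plus strand), which all 3 receptors need, differed in the direction opposite to FAS. It was at 8.35, 9.45 and 6.51 FPKM in DMSO against 11.8, 11.4 and 9.36 FPKM with bryostatin. Only DMSO replicate 2 and bryostatin replicate 3 overlapped. The means were 8.10 ± 1.48 and 10.9 ± 1.32 FPKM, a log2 change of 0.39 (SE 0.14, 95% interval 0.051 to 0.73, unadjusted p = 0.0297, adjusted p = 0.245 in limma). Without DMSO replicate 3, the lowest library for FADD, the log2 change was 0.26 and the unadjusted p 0.0733 in limma. FADD rested on 240 to 421 reads per library. Of its exon bases 54.9% are shared with the antisense gene AP000879.1, listed with 0 reads in all libraries, and how reads in the shared part were counted is not given in the sources used here. The absolute level of FADD is therefore uncertain.

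CASP8 (ENSG00000064012, chromosome 2, 201233443 to 201287711, plus strand), the initiator caspase of the pathway, was at 1.95, 2.17 and 1.63 FPKM in DMSO against 2.02, 1.74 and 1.95 FPKM with bryostatin. The bryostatin libraries all lay within the DMSO range. The means were 1.92 ± 0.275 and 1.90 ± 0.148 FPKM, and the log2 change was -0.0029 with a 95% interval from -0.26 to 0.26 (adjusted p = 0.992 in limma). As a ratio of FPKM + 1, not of FPKM, the interval runs from 0.834 to 1.19 of the DMSO value. At so low a level the added 1 narrows it, and the range in FPKM itself is wider. The sign of so small a change followed the scaling, with 0.010 after quantile normalisation.

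CASP10 (ENSG00000003400, chromosome 2, 201182881 to 201229406, plus strand), the closest relative of CASP8, had 6, 2 and 4 reads in DMSO and 4, 1 and 2 reads with bryostatin. No library exceeded 0.0320 FPKM, so CASP10 did not reach the mean of 1 FPKM needed for testing. The 12 reads in DMSO and 7 with bryostatin gave a ratio of 0.634 per read on genes. Its exact 95% interval from 0.211 to 1.75 covers counting error only, so no difference was detectable at this depth. In DMSO the mean CASP8 level was 81.8 times that of CASP10. CASP10 lies 6193 bases downstream of CFLAR and 4036 bases upstream of CASP8, with no other gene of the table between them.

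CFLAR (ENSG00000003402, chromosome 2, 201116104 to 201176687, plus strand), the inhibitor, was at 2.51, 1.95 and 2.04 FPKM in DMSO against 1.48, 2.04 and 1.80 FPKM with bryostatin. Bryostatin replicate 2 lay among the DMSO libraries and bryostatin replicates 1 and 3 below them. The means were 2.17 ± 0.304 and 1.78 ± 0.283 FPKM (log2 change -0.19, 95% interval -0.48 to 0.097, adjusted p = 0.427 in limma). It was -0.11 without DMSO replicate 1 and -0.11 without bryostatin replicate 1, and -0.31 with voom weights. At so low a level the added 1 also shrinks the change, which was -0.28 with 0.1 FPKM added in its place. FPKM divides by a listed length of 22529 bases, the union of all annotated exons of 25 transcripts, whereas the longest coding transcript has 14672 bases. The long and short c-FLIP proteins come from spliced forms of this gene, and a gene total does not separate them.

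BID (ENSG00000015475, chromosome 22, 17734138 to 17774770, minus strand), the link to mitochondria, was at 10.8, 12.2 and 10.0 FPKM in DMSO against 12.1, 10.3 and 11.4 FPKM with bryostatin. The bryostatin libraries all lay within the DMSO range. The means were 11.0 ± 1.09 and 11.3 ± 0.938 FPKM, and the log2 change of 0.03 had a 95% interval from -0.20 to 0.27 (adjusted p = 0.887 in limma). The sign of BID depended on the scaling, with -0.013 for TPM.

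**Figure D3:**
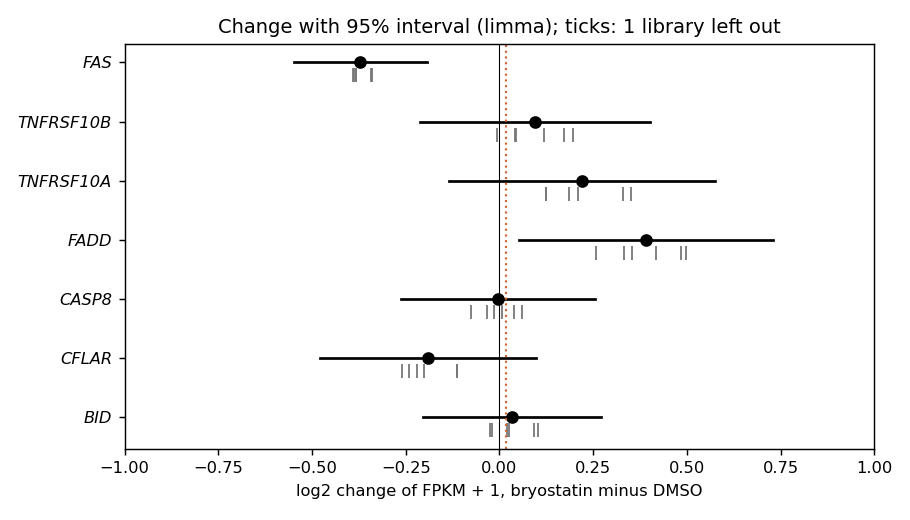
Log2 change of FPKM + 1, bryostatin minus DMSO, with the 95% interval of limma (black) for the 7 genes tested, the values with 1 library left out (grey ticks) and the median of all tested genes (dotted line, 0.02). The intervals of FAS (-0.55 to -0.19) and FADD (0.051 to 0.73) do not reach 0, and those of the other genes do.

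Of the list, 7 of the 8 genes had a mean of at least 1 FPKM and were tested. Of these 4 were higher and 3 lower with bryostatin, with a median log2 change of 0.03 against 0.02 over all genes tested. None passed an adjusted p of 0.05 in limma, as for 0% of all genes, whose smallest adjusted p was 0.121. At an unadjusted p under 0.05, 1 member (FAS) was lower and 1 (FADD) higher, where 17.6% of all genes reached that level, 7.18% lower and 10.5% higher. Voom weights on the recovered reads again gave FAS and FADD unadjusted p of 0.00140 and 0.0364, and 0 genes after adjustment. The groups did not overlap for 1 of the 7, a lower one, where 23.6% of all genes did not, 10.7% lower and 12.9% higher. Among 7 genes, 1 in either direction is near these background shares. The 95% interval lay within 2-fold either way for all 7 on the log2(FPKM + 1) scale.

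In the order of mean levels per length, FAS stood first in DMSO and behind TNFRSF10B, BID and FADD with bryostatin, and CFLAR and CASP8, whose ranges overlapped in both groups, changed places. In DMSO, FAS lay above TNFRSF10B in every library. TNFRSF10B and BID overlapped, as did FADD and TNFRSF10A, with BID above FADD in every library. With bryostatin the ranges of TNFRSF10B, BID, FADD and FAS overlapped from one to the next, at means of 12.2, 11.3, 10.9 and 10.8 FPKM. FADD thus overlapped BID, and its lowest library (9.36 FPKM) was next to the highest of TNFRSF10A (9.34 FPKM). The place of FADD in either order is uncertain, because its absolute level is. In both groups TNFRSF10A lay above CFLAR and CASP8, and CASP10 came last. Exon-union lengths affect this order: per kilobase of the longest coding transcript, the DMSO means were 23.6 for FAS, 19.6 for BID, 14.1 for TNFRSF10B, 8.10 for FADD, 7.42 for TNFRSF10A, 4.74 for CASP8 and 3.33 for CFLAR, which puts CASP8 above CFLAR and BID above TNFRSF10B. On those lengths the bryostatin means were 20.1 for BID, 17.9 for FAS, 15.2 for TNFRSF10B and 10.9 for FADD. FAS then moved from first to second place only, so how far it moved in the order depends on the lengths used.

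The balance of CFLAR to CASP8 bears on whether a clustered receptor activates the caspase, and as a ratio within a library it does not depend on library scaling. The FPKM ratio was 1.29, 0.896 and 1.25 in DMSO against 0.731, 1.17 and 0.924 with bryostatin. Bryostatin replicates 2 and 3 lay within the DMSO range, and bryostatin replicate 1 was the library below it. The log2 ratio differed by -0.29 between bryostatin and DMSO (exact two-sided permutation test, p = 0.3, where 0.1 is the smallest possible), less than the SD of the bryostatin libraries (0.34) and close to that of DMSO (0.29). The level of the ratio rests on the lengths: with the longest coding transcripts the means were 0.712 in DMSO and 0.586 with bryostatin, against 1.15 and 0.943 with the listed lengths, and the change between treatments is the same either way.

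**Figure D4:**
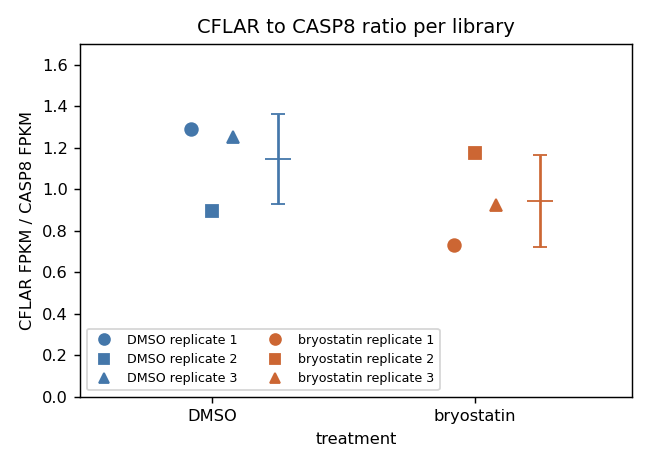
Ratio of CFLAR to CASP8 FPKM in each library (linear axis from 0; marker shape gives the replicate number) with the mean ± SD of 3 libraries at the side. The groups overlap, 0.896 to 1.29 in DMSO and 0.731 to 1.17 with bryostatin.

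Over the 6 libraries, CASP8 and BID varied together (r = 0.930 of log2(FPKM + 1)), and CFLAR and TNFRSF10A varied in opposite directions (r = -0.934). These were the highest and the lowest r among all pairs of the 7 tested genes. These are descriptions over 6 points that share library, depth and treatment. After removing each group's mean, r was 0.945 and -0.914, so both patterns were present within the groups, in the same libraries from which the pairs were picked. FAS varied most closely with CFLAR among the 7 tested genes (r = 0.776). Among 9264 other protein-coding genes, the closest to FAS over the 6 libraries were XRN1, PPARA and ZNF132 (r = 0.994, 0.993 and 0.992), and 123 genes exceeded 0.95. XRN1, the cytoplasmic 5′ exonuclease, had 2.51 ± 0.123 FPKM under DMSO against 1.98 ± 0.0601 under bryostatin, and PPARA, a nuclear receptor of lipid metabolism, 2.77 ± 0.355 against 1.55 ± 0.130. Genes chosen for their likeness to FAS, whose groups do not overlap, had to be lower with bryostatin too, so their direction is not a separate result.

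The wider pathway was followed in 57 further genes, 40 of them tested. None passed an adjusted p of 0.05. At an unadjusted p under 0.05, 6 were higher and 3 lower, where all genes gave 10.5% and 7.18%. Without overlap 7 were higher and 4 lower, where all genes gave 12.9% and 10.7%. The median log2 change was 0.04. The balance of these counts did not hold across settings, and quantile normalisation turned it to 3 higher and 6 lower. The number higher was 1 without bryostatin replicate 1, 2 without DMSO replicate 1 and 3 without bryostatin replicate 2 or 3.

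Of the 5 ligands, FASLG had 0 reads in all libraries and TRAIL (TNFSF10) 220 reads in DMSO and 158 with bryostatin, at 0.969 and 0.743 FPKM, below the level for testing. TNF was at 24.7, 61.8 and 12.3 FPKM in DMSO against 39.8, 16.7 and 52.1 FPKM with bryostatin. LTA, the neighbouring lymphotoxin gene, was at 60.8, 163.7 and 32.7 FPKM in DMSO against 98.7, 27.9 and 104.2 FPKM with bryostatin. The 2 cytokines shared their 3 highest libraries, and their spread within a group was far wider than any difference between groups. The log2 changes were 0.28 and -0.06, with 95% intervals from -1.16 to 1.71 for TNF and -1.66 to 1.54 for LTA. The sign of LTA turned without DMSO replicate 2 (0.56) and that of TNF without DMSO replicate 3 (-0.25). Of 7 other receptors and decoys only TNFRSF1A, the TNF receptor with a death domain, was tested, at 2.76 ± 0.468 and 2.85 ± 0.224 FPKM.

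Among 12 adaptors and kinases, 10 were tested and 3 had an unadjusted p under 0.05, a level that 17.6% of all genes reached. TRAF2, which brings inhibitors of apoptosis to TNF receptors, was at 11.6, 11.3 and 8.84 FPKM in DMSO against 13.4, 14.2 and 12.4 with bryostatin (adjusted p = 0.245 in limma). DAXX, first described as a FAS-binding protein, was at 18.6 ± 0.296 and 21.2 ± 0.428 FPKM. The deubiquitinase CYLD was at 3.73 ± 0.141 and 3.003 ± 0.388 FPKM, and RBCK1, a subunit of the linear ubiquitin ligase, had a log2 change of -0.09 with overlapping libraries. Across the alternative settings the unadjusted p in limma was under 0.05 in 13 of 17 for TRAF2, 6 of 17 for DAXX and 9 of 16 for CYLD. For DAXX it was 0.128 with TPM, 0.168 with quantile normalisation, 0.0571 with median-of-ratios scaling, 0.0744 with voom weights and 0.134 with the replicate block, and for CYLD 0.0927 with the block. The necroptosis genes RIPK3 and MLKL were below the level for testing, MLKL with 13 reads in DMSO and 9 with bryostatin.

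No other apoptotic caspase had an unadjusted p under 0.05, and 5 of 6 genes of that list were higher, where 53.9% of all genes tested were. CASP2 had a log2 change of 0.03. The 4 genes listed as inflammatory caspases were all below the level for testing.

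Of 7 inhibitors, BIRC6, a very large ubiquitin ligase that binds caspases, was at 8.18, 8.61 and 8.13 FPKM in DMSO against 6.30, 6.17 and 6.43 with bryostatin. Its groups did not overlap either (log2 change -0.35, unadjusted p = 0.00155, adjusted p = 0.216 in limma). BIRC3 was at 89.2 ± 6.54 and 78.9 ± 12.5 FPKM, and PEA15, which binds FADD and CASP8 through a death effector domain, at 43.2 ± 3.56 and 40.7 ± 2.23 FPKM, both with overlapping libraries.

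At the mitochondrial step, 7 of 8 genes were tested. CYCS, cytochrome c, was at 49.3, 50.1 and 53.5 FPKM in DMSO against 76.8, 68.8 and 59.1 with bryostatin (log2 change 0.41, adjusted p = 0.217 in limma), and BAX, a pore-forming effector downstream of BID, at 24.7 ± 1.19 and 31.7 ± 5.52 FPKM (unadjusted p under 0.05 in 10 of 17 alternative settings). BCL2, which restrains that pore, was at 7.12, 6.18 and 6.45 FPKM in DMSO against 3.77, 4.77 and 5.01 with bryostatin (log2 change -0.46, adjusted p = 0.216 in limma). These 3 of the 7 tested genes had no overlap between groups, where 23.6% of all genes tested had none. MCL1 at 93.5 ± 16.7 and 84.5 ± 2.53 FPKM overlapped. DIABLO stood on 2 gene rows, so its low value is uncertain.

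Among 8 caspase substrates, LMNB1, lamin B1, was at 51.6, 61.0 and 89.6 FPKM in DMSO against 117.9, 83.7 and 102.6 with bryostatin, so DMSO replicate 3 lay above the lowest bryostatin library. Its log2 change was 0.61 (unadjusted p = 0.0261, adjusted p = 0.241 in limma), with an unadjusted p under 0.05 in 13 of 17 alternative settings. LMNB1 was low in the same 2 libraries, DMSO replicates 1 and 2, as the summed proliferation genes given above, whose part in it was not tested. PARP1 was at 128.6 ± 12.5 and 143.4 ± 10.8 FPKM with overlapping libraries.

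**Figure D5:**
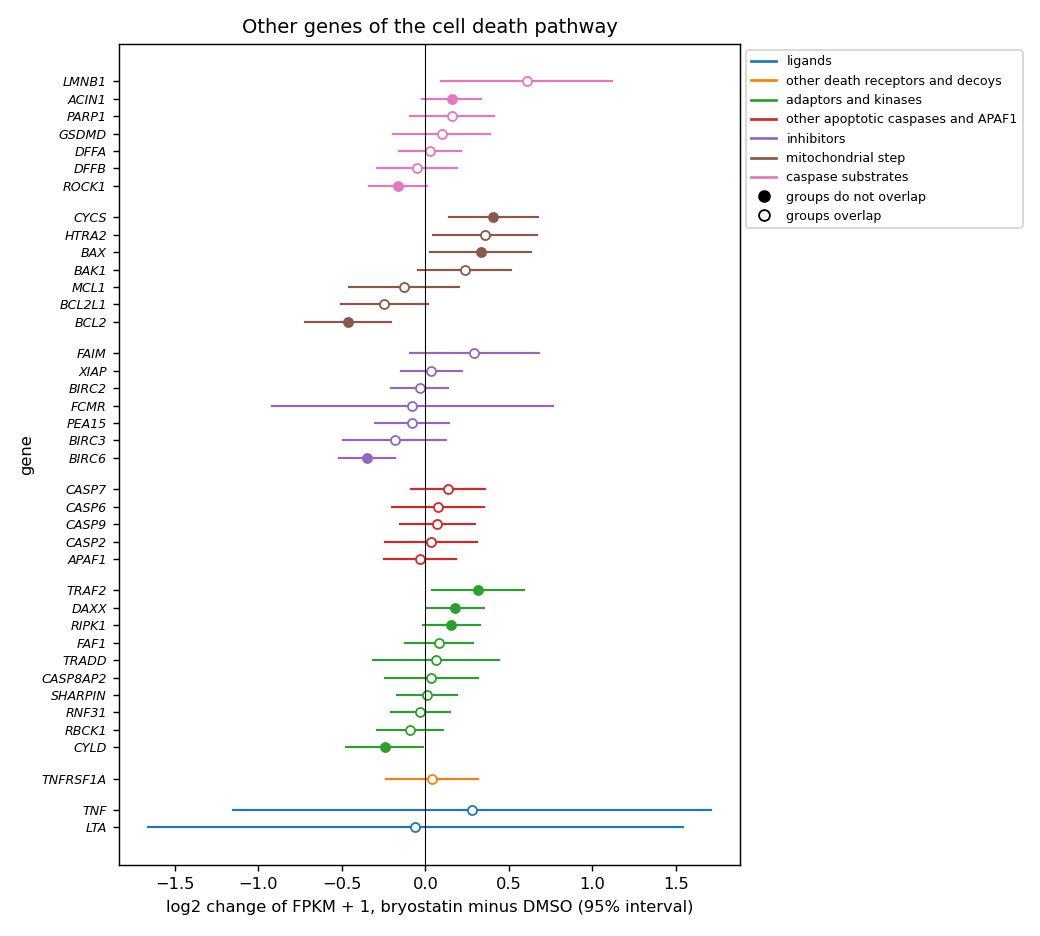
Log2 change of FPKM + 1, bryostatin minus DMSO, with the 95% interval of limma for 39 of the 40 tested genes of the wider pathway, coloured by list and filled where the 3 DMSO and 3 bryostatin libraries do not overlap. TNF and LTA have the widest intervals, and BIRC6 and BCL2 are the filled points farthest to the left.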

How the data were processed

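The table deposited by the authors lists FPKM per gene for 6 libraries beside each gene's length. Build hg38, the aligner HISAT2 (2.0.5), the read counter featureCounts (1.5.0-p3), DESeq2 (1.20.0) and CASAVA appear, with no role, in the submitters' processing notes. Annotation release and strand setting: not given in the sources used here. All 58735 gene coordinates and lengths equal those of GENCODE release 29, the lengths being exon unions. Multiplied by length, FPKM fell on multiples of a fixed step in each library (100% of values, tolerance 0.001 reads), from which the reads were recovered. Limits and intervals from reads cover counting error only.

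Genes averaging at least 1 FPKM were tested on the log2(FPKM + 1) scale in limma 3.58.1 (R 4.3.3, intensity trend, Benjamini-Hochberg over all 11071 genes). Exact tests used SciPy 1.17.1. Proteins were translated from the principal GENCODE transcript with the longest coding sequence and aligned with BLOSUM62. The fit was run on simulated counts with the same dispersion for every gene, no factor shared between genes, and planted changes larger than those of the members. That simulation cannot show how the fit performs on changes of the size seen here. Every pair of libraries differed by more than sampling noise (chi-square of 11.6 or more per gene).

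The members and lists were chosen with earlier results of these data known. Named from each list were genes with an adjusted p under 0.05, genes without overlap whose unadjusted p was under 0.05, and the 2 most abundant; 3 genes most like FAS were added. RIPK3, MLKL, FASLG, TNFSF10, DIABLO, TNFRSF10C and TNFRSF10D were named after their values were seen. Alternatives covered pseudocount, filter, scaling, moderation, voom weights, replicate block and each library left out. The use of transcript lengths was added after seeing the data. A gene that the rule takes is not reported here.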

Additional observations from a re-analysis of the deposited data

How the results depend on the processing

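No gene passed an adjusted p of 0.05 in limma, against 1 with a pseudocount of 0.1 FPKM, 1 with TPM and 66 without a filter on low values. Without that filter most genes had no reads in any given library, and the moderation is unreliable. Leaving out 1 library gave 0 to 267 genes, the 267 without DMSO replicate 3, a fit that compares DMSO replicates 1 and 2 with bryostatin. None of the 7 tested genes of the chain passed in any of these settings. FAS was lower in all 17 (log2 change -0.44 to -0.34, adjusted p from 0.0584 to 0.586, unadjusted p under 0.05 in each), and FADD higher in all 17 (0.26 to 0.50, unadjusted p under 0.05 in 13). CFLAR was lower in all 16 settings that tested it (-0.31 to -0.11) and TNFRSF10A higher in all 17 (0.12 to 0.35). The CFLAR to CASP8 ratio kept its sign, from -0.46 to -0.12 with 1 library left out.

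Signs turned for values near 0. BID ran from -0.025 to 0.10 with 1 library left out and had -0.013 with TPM, -0.017 with quantile normalisation, -0.025 without DMSO replicate 3 and -0.019 without bryostatin replicate 1. CASP8 ran from -0.076 to 0.060 and had 0.010 with quantile normalisation, 0.0073 without DMSO replicate 1, 0.060 without DMSO replicate 2 and 0.039 without bryostatin replicate 2. TNFRSF10B ran from -0.0071, without bryostatin replicate 3, to 0.20. CASP2 ran to 0.15 and had -0.011 with TPM and -0.036, -0.018 and -0.011 without DMSO replicate 1, DMSO replicate 2 and bryostatin replicate 3. LTA ran from -0.59 and had 0.56 without DMSO replicate 2 and 0.55 without bryostatin replicate 2. Without DMSO replicate 3 and without bryostatin replicate 3, TNF had -0.25 and -0.049 and TNFRSF1A -0.068 and -4.47e-04, while they ran up to 0.87 and 0.10 without other libraries. The cause was not tested.

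The replicate number did not pair the libraries (r of same-number deviations -0.29, -0.32 and -0.11). With it as a block, FAS had an adjusted p of 0.456, FADD 0.456, 0 genes passed, 1191 had an unadjusted p under 0.05 against 1954 without it, and the ratio difference of -0.29 had an exact p of 0.5. Of the wider pathway genes, 1 to 6 were higher and 2 to 6 lower at an unadjusted p under 0.05 across settings, with 5 and 5 for TPM, median-of-ratios scaling and voom weights, 3 and 6 for quantile normalisation and 3 and 2 with the block.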
